A study of Mus musculus with 9 samples.

Results

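The subunits of the transcription factor AP-1 and its relative Atf3 were followed in allograft tumors treated with R-propranolol or vehicle. The 8 genes were taken by symbol from the count table: Fos, Fosb, Fosl1 and Fosl2 of the Fos family, Jun, Junb and Jund of the Jun family, and Atf3. They are 8 of 24421 genes listed, and all 8 were among the 13901 with enough counts for the comparison between groups. They were selected on their fold changes in this same comparison, so their differences between groups are given as a description, without a test.

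The tumors came from bEnd.3, a line of mouse endothelial cells that carries the middle T oncogene of polyoma virus. The cells had been injected into the flank of athymic male Nu/Nu nude mice. Mice of 1 group received R-propranolol, the propranolol isomer that lacks most of the beta-blocking activity, by intraperitoneal injection at 6 mg/kg per day, 5 times a week from day 2 after the cells. Mice of the other group received the ethanol and saline vehicle. Each library was taken as 1 tumor, with 4 tumors given vehicle and 5 given R-propranolol. The paper states 5 mice per group, so not every vehicle mouse has a library here. The sources used here do not give the age of the mice or the time between the last dose and collection. The model is 1 transformed line in a host that lacks T cells, and the tumors were sequenced whole, with host stroma included. The titles of vehicle replicates 1 and 2 begin with the same code, where the other tumors have a code each. The labels do not say what the code stands for. Whether these are tumors of a single animal, or libraries of a single tumor, is not known.

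AP-1 is a dimer of basic leucine zipper proteins. Jun proteins pair with each other or with Fos proteins, whereas Fos proteins need a Jun partner to bind DNA. Fos, Fosb, Jun, Junb and Atf3 are immediate-early genes, whose transcripts appear within minutes of a growth factor, calcium, cyclic AMP or stress signal and decay quickly. Fosl1 and Fosl2 follow more slowly and are maintained by continued MAP kinase signaling, and Jund is made steadily. In endothelium AP-1 acts on genes of migration, matrix breakdown and inflammation. The polyoma middle T antigen signals through the same kinases that raise AP-1 in other cells.

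Counts over genes ranged from 20599904 to 24949010 in the vehicle-treated tumors and from 21084749 to 27852630 in the R-propranolol-treated tumors. R-propranolol replicate 5 stood apart. Skeletal muscle markers took 13.4% of its counts, against 0.000714% to 0.0473% elsewhere, and its log2 CPM (counts scaled by TMM to library size) correlated with those of its group at r of 0.716 to 0.799, against 0.927 to 0.988 between the other tumors of a group. The summed fibroblast markers were also high in R-propranolol replicates 2 and 5, at 31900 and 15800 CPM, against 5230 to 8530 in the other 7 tumors. The 12 endothelial markers were detected in every tumor and summed to 885 to 1300 CPM. Taken singly, 10 of the 12 had a higher mean with R-propranolol. Their median log2 fold change was 1.04, and 0.32 without replicate 5. Values without replicate 5 are given beside results that it moves.

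The comparison with vehicle called no gene of 13901 at an adjusted p under 0.05 (0.0%, edgeR quasi-likelihood test with Benjamini-Hochberg adjustment, smallest adjusted p 0.876), and at an unadjusted p under 0.05 it called 320 (2.3%). The DESeq2 test called 2 genes at an adjusted p under 0.05, Egr1 and Dusp1, and neither is an AP-1 subunit. No AP-1 gene is among those called after adjustment, and the fold changes below are sizes with their errors.

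Fos was the member with the largest fold change. The Fos protein is the classic immediate-early partner of Jun. Vehicle replicates 1 to 4 held 7.66, 8.86, 7.18 and 5.36 CPM of Fos, and R-propranolol replicates 1 to 5 held 12.8, 37.5, 23.7, 9.26 and 68.1 CPM. Every treated tumor lay above every vehicle-treated tumor, though replicate 4 exceeded the highest vehicle value by little and replicate 5 lay far above the rest. Groups without overlap and with the treated tumors higher were found for 88 genes, 0.633% of those compared, and Fos was the single member among them. The treated tumors were lower without overlap for 0.626% of genes and for none of the members. Mean Fos was 7.27 ± 1.45 CPM (SD, n = 4) with vehicle. With R-propranolol it was 30.3 ± 23.8 CPM (SD, n = 5), for a log2 fold change of 2.06 (SE 0.57), or 4.16-fold. Without replicate 5 it was 1.51 (SE 0.41), or 2.85-fold, and without replicates 2 and 5 it was 1.07. In whole tumor RNA, more Fos per cell and more cells that express it cannot be told apart.

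The high Fos values sat partly in tumors with high sums of stromal markers. Replicates 2 and 5 had the highest Fos and the highest fibroblast sums, and mural cell markers summed to 500 and 9010 CPM there, against 131 to 228 CPM in the other 7. Macrophage markers summed to 3730 and 4330 CPM in these replicates, and to 791 to 2290 CPM elsewhere. Their part in the Fos difference was not tested. Replicate 3 had 23.7 CPM of Fos with a fibroblast sum of 6000 CPM and a mural sum of 162 CPM, both within the vehicle range.

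Fosb, which can replace Fos in the dimer and has a truncated form made by splicing, was the least abundant member. Vehicle replicates 1 to 4 held 5.38, 3.01, 2.98 and 2.33 CPM of Fosb, and R-propranolol replicates 1 to 5 held 5.61, 15.7, 16.5, 4.75 and 9.38 CPM. Replicates 2, 3 and 5 were well above the vehicle range, replicate 1 was just above it, and replicate 4 lay inside it. These values rest on 49 to 125 reads in vehicle-treated and 116 to 460 reads in R-propranolol-treated tumors. The means were 3.42 ± 1.34 and 10.4 ± 5.51 CPM, with a log2 fold change of 1.60 (SE 0.46), or 3.03-fold, and 1.63 (SE 0.47) without replicate 5. A log2 fold change of 1 or more was found for Fos and Fosb among the members and for 1451 of all genes, 10.4%.

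Atf3, an ATF/CREB family member that pairs with Jun proteins and is induced by stress, came next. Vehicle replicates 1 to 4 held 32.0, 38.4, 30.0 and 32.1 CPM of Atf3, and R-propranolol replicates 1 to 5 held 43.2, 51.5, 67.2, 40.0 and 23.4 CPM. The first 4 treated tumors were all above the vehicle range, and replicate 5 was below it. The log2 fold change of Atf3 was 0.45 (SE 0.26), or 1.36-fold, and 0.61 (SE 0.16), or 1.52-fold, without replicate 5.

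The starts of Fos, Fosb, Jun and Atf3 are shown from among the signal-induced members. The letters before their starts show which short elements they share. Junb is an immediate-early gene as well, and its window, not printed here, held none of the elements named below. The sequences are RefSeq's on GRCm38.p6, 110 bases up to the base before the transcription start, 5′ to 3′ on the strand of the gene. The intervals are chr12:85473780-85473889 for Fos on the plus strand, and chr7:19310046-19310155 for Fosb, chr4:95052223-95052332 for Jun and chr1:191183334-191183443 for Atf3 on the minus strand. Capitals mark TGACGT on either strand, the core of the cyclic AMP response element, and TGACNTCA, the form of the element known from the Jun promoter.
Fos: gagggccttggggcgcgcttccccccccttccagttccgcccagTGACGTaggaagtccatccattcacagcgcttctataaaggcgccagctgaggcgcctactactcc
Fosb: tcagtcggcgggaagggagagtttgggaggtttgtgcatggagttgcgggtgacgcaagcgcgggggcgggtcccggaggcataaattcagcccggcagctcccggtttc
Jun: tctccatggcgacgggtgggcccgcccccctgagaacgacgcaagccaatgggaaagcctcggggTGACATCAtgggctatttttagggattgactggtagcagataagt
Atf3: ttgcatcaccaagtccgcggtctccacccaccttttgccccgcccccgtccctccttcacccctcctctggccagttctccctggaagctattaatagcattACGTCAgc

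Windows of 250 bases before the start were searched on both strands for 7 members, all but Fosl1, with elements chosen after the values of the genes had been seen. TGACGT was found for Fos at -66 to -61 and, on the reverse strand, for Atf3 at -8 to -3, and it was in 6.47% of 32851 mouse windows of the same length. TGACNTCA was found for Jun at -45 to -38 and was in 7.49% of windows. No member window held TGACGTCA (1.55% of windows) or the CArG box bound by serum response factor (1.47%). None held TGANTCA with any base at N, a pattern wider than the AP-1 site that it includes (6.75%). Bases further before the start were not searched, so an element there would not have been found. GGGCGG, the core of a GC box, was found for Fos, Fosb, Fosl2, Jun and Atf3 and was in 32.7% of windows. For Fosl2, Jund and Atf3 the RefSeq start lies well away from the start of the gene in GENCODE, so what these windows hold depends on the start used. A match is a description of these letters and does not show binding. Fosb had no exact match to either cyclic AMP element in its window. Variants with a changed base were not searched, so they would not have been found for any member.

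The pentamer ATTTA, which is bound by proteins that speed the decay of immediate-early transcripts, was counted in the 3′ UTRs. Fos held 4 copies in 815 bases, or 4.91 per kilobase, against a median of 1.35 per kilobase over all genes. A pair of overlapping copies lay at the end of the stretch from base 632 to 661 of that UTR. The stretch is shown with ATTTA in capitals because Fos was the member that differed most.
Fos 3′ UTR: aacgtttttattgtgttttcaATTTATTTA

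Junb had 4.12 copies per kilobase, Jun 3.24 and Atf3 2.53. Jund had 1.88, Fosl2 1.72 and Fosl1 1.57. Fosb had the lowest density, 1 copy in 2302 bases, or 0.434 per kilobase, so Fos and Fosb stood at opposite ends of this scale.

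**Figure D1:**
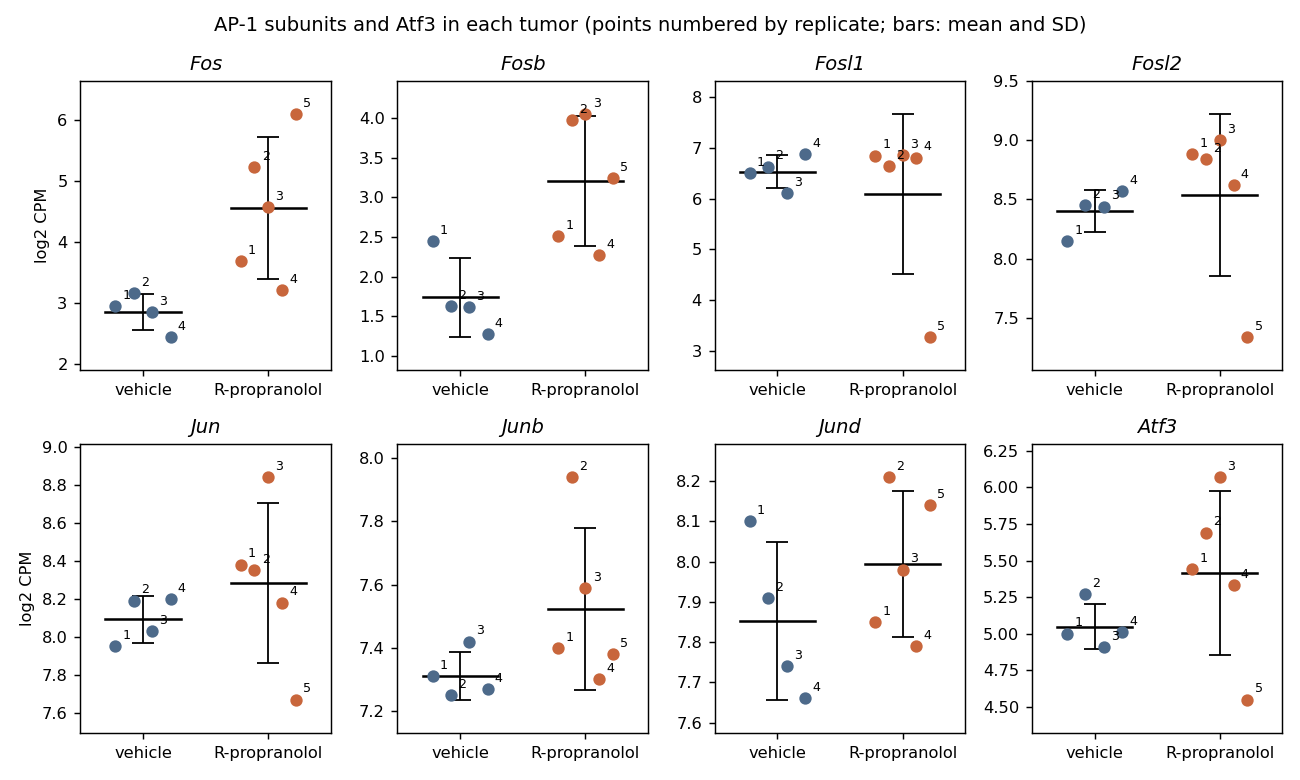
Log2 CPM (vertical axes, a separate range for each gene) of the 8 members in each tumor, with 4 given vehicle (blue) and 5 given R-propranolol (orange). Numbers beside the points are replicates, and bars give the mean with its SD. The groups are apart for Fos alone, and R-propranolol replicate 5 is the lowest tumor for Fosl1, Fosl2, Jun and Atf3 and the highest for Fos.

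Fosl1 and Fosl2 lack the transactivation domain of Fos, and Fosl1 is a well known product of sustained ERK signaling. Vehicle replicates 1 to 4 held 90.7, 99.1, 69.0 and 118 CPM of Fosl1, and R-propranolol replicates 1 to 5 held 115, 99.7, 116, 112 and 9.58 CPM. The first 4 treated tumors lay within the vehicle range, and replicate 5 lay far below every other tumor. Fosl1 in replicate 5 was 11.5 times lower than the mean of the other treated tumors, and 0.799% of genes were lower still in the same comparison. The log2 fold change of Fosl1 was -0.06 (SE 0.57), and 0.23 (SE 0.15) without replicate 5. Leaving out vehicle replicate 4 instead gave 0.07, so its sign was not settled. Fosl1 shares 1163 exon bases with Ccdc85b on the opposite strand, and the sources used here do not say how the counting treated strand, so reads of the 2 genes may not be told apart.

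Vehicle replicates 1 to 4 held 285, 349, 346 and 381 CPM of Fosl2, and R-propranolol replicates 1 to 5 held 471, 459, 512, 394 and 162 CPM. The first 4 treated tumors were all above the vehicle range, and replicate 5 was below it. The log2 fold change of Fosl2 was 0.23 (SE 0.30), and 0.43 (SE 0.11), or 1.35-fold, without replicate 5. When replicate 5 was left out, 3 members had groups that did not overlap, Fos, Fosl2 and Atf3, and 1.81% of all genes did so with the treated tumors higher.

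Jun, the main transactivating partner, differed less. Vehicle replicates 1 to 4 held 248, 292, 262 and 294 CPM of Jun, and R-propranolol replicates 1 to 5 held 333, 326, 458, 289 and 203 CPM. Replicates 1, 2 and 3 were above the vehicle range, replicate 4 was inside it and replicate 5 below it. The log2 fold change of Jun was 0.23 (SE 0.21), and 0.36 (SE 0.14), or 1.28-fold, without replicate 5.

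Junb, which often restrains Jun, held 159, 152, 171 and 154 CPM in vehicle replicates 1 to 4 and 169, 245, 193, 157 and 166 CPM in R-propranolol replicates 1 to 5. Replicates 2 and 3 alone were above the vehicle range, and replicate 5 was not unusual. The log2 fold change of Junb was 0.23 (SE 0.14). Jund, the constitutive Jun protein, held 275, 240, 214 and 202 CPM in vehicle-treated tumors and 230, 296, 252, 222 and 282 CPM in R-propranolol-treated tumors. The groups overlapped, and the log2 fold change of Jund was 0.14 (SE 0.14). Scaled by library size alone it was -0.01. Jund and Junb share exon bases with genes on the opposite strand, 877 with Gm11175 and 173 with Prdx2, and Jun shares 232 with Junos. Strand limits these counts as it does those of Fosl1. Prdx2, like Ccdc85b, is among the genes listed with counts, while Gm11175 and Junos are not.

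**Figure D2:**
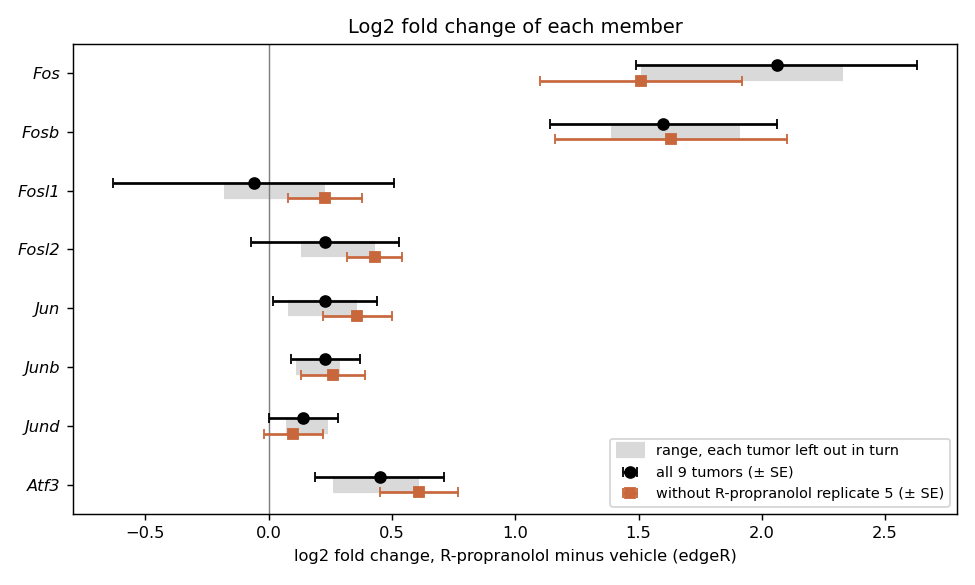
Log2 fold change of each member, R-propranolol minus vehicle (horizontal axis), from all 9 tumors (black) and without R-propranolol replicate 5 (orange), with bars for the standard error and grey bands for the range when each tumor was left out in turn. Fos (2.06) and Fosb (1.60) lie apart from the other 6 members, and Fosl1 has its point on either side of 0.

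Of the 8 members, 7 had a higher mean in the R-propranolol-treated tumors, and 8 without replicate 5. A log2 fold change above 0 was found for 54.3% of all genes with all tumors and for 53.7% without replicate 5. The median log2 fold change of the members was 0.23 and that of all genes 0.03. Library size alone moved the median of all genes to -0.10, where 35.8% were above 0, and the median of the members to 0.14, with 6 of 8 above 0. The count of members was set by how they were chosen and is no sign of stability.

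Replicate 5 did not move the members together. Relative to the mean of the other treated tumors, it held 3.26 times more Fos, and Fosb, Junb and Jund differed by log2 values of -0.18, -0.20 and 0.18. In the same tumor Fosl1 was 11.5 times, Fosl2 2.84 times, Atf3 2.15 times and Jun 1.73 times lower. Its summed muscle markers were 188000 CPM, against 7.15 to 432 CPM in the other 8 tumors, and its summed adipocyte markers 5380 CPM, against 125 to 461 CPM. Their part in these values was not tested. The sum of its endothelial markers, at 885 CPM, was close to the lower end of the other tumors, 973 CPM. This sum does not show that single markers were alike. The median log2 fold change of the 12 was 1.04 with this tumor and 0.32 without it.

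Levels were compared between members as CPM per kilobase of exon bases, within each tumor. By this length the Jun family stood above the Fos family. In vehicle-treated tumors Jund was at 140 ± 19.4, Jun at 85.8 ± 7.11 and Junb at 69.1 ± 3.77 CPM per kilobase (SD, n = 4). Fosl1 followed at 46.3 ± 9.95, Fosl2 at 35.1 ± 4.15 and Atf3 at 15.4 ± 1.69. Fos was at 3.09 ± 0.618 and Fosb at 0.548 ± 0.215 CPM per kilobase. The order of the mean levels was the same in R-propranolol-treated tumors, where Fos averaged 12.9 ± 10.1 and Fosb 1.66 ± 0.882 (SD, n = 5), still the lowest of the 8.

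Neighbours in this order are given by their difference in log2 level per kilobase within a tumor, as a description, since the order was set in the same 9 tumors. Jund exceeded Jun by 0.67 ± 0.40 (SD) in 9 of 9 tumors, and Jun exceeded Junb by 0.30 ± 0.30 in 7 of 9. Junb exceeded Fosl1 by 0.96 ± 1.15 in 9 of 9 tumors, and by 0.60 without replicate 5. Fosl1 and Fosl2 did not differ beyond their spread, at 0.06 ± 0.74, and at 0.29 without replicate 5. Fosl2 exceeded Atf3 by 1.06 ± 0.26 and Fos exceeded Fosb by 2.52 ± 0.69, each in 9 of 9 tumors. Atf3 exceeded Fos by 1.56 ± 1.26 in 8 of 9 tumors, and replicate 5 was the tumor with Fos above Atf3. Exon bases shared with a gene on the opposite strand limit these levels, since the strand setting is not known. They are 1163 of 2033 for Fosl1 and 877 of 1668 for Jund. The length used for a gene enters the levels as well. With coding length, Fosl2 was the highest of the 8, at 348 CPM per kilobase with vehicle, ahead of Jun at 273, Jund at 228 and Junb at 154. With the longest transcript, Junb came above Jun (mean difference -0.05) and Fosl2 above Fosl1 (-0.38).

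**Figure D3:**
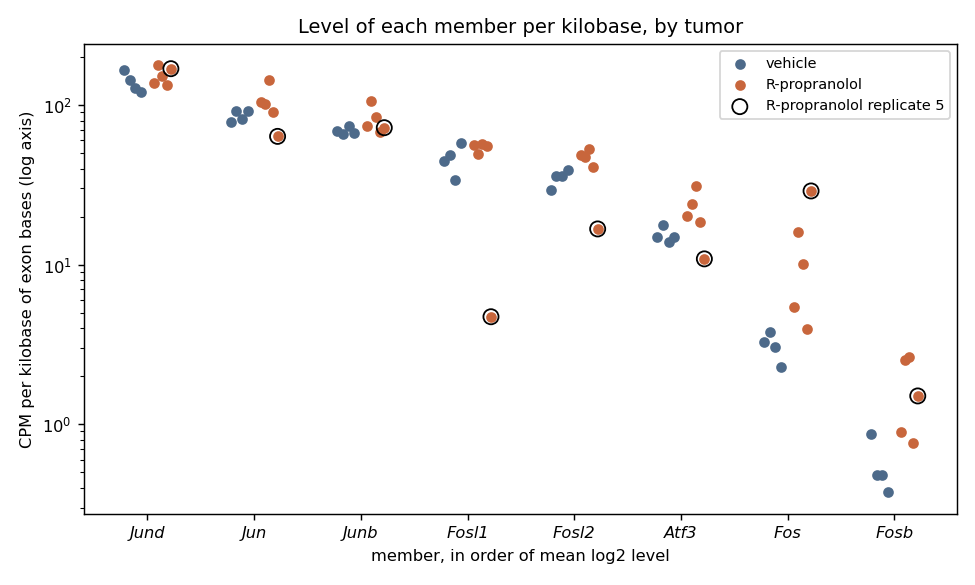
CPM per kilobase of exon bases (vertical log axis) of each member (horizontal axis, in order of mean log2 level) with a point for each of 9 tumors and a ring around R-propranolol replicate 5. Jund is highest and Fosb lowest, and replicate 5 lies at 4.71 for Fosl1 and at 29.0 for Fos.

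The share of the Fos family in the summed level per kilobase of the 7 Fos and Jun subunits was 22.4 ± 2.87% (SD, n = 4) in vehicle-treated and 22.7 ± 4.76% (SD, n = 5) in R-propranolol-treated tumors. Without replicate 5 the latter was 24.8 ± 1.37%. The limits of strand and length given for the levels hold for these shares too. The makeup within the family differed more than its share. Fos and Fosb together were 2.66% to 5.27% of the Fos family with vehicle, while in R-propranolol replicates 1 to 5 they were 5.68%, 16.1%, 10.4%, 4.68% and 58.7%. Replicate 4 lay within the vehicle range and replicate 1 just above it. The sum of Fosl1 and Fosl2 was 81.4 ± 12.3 CPM per kilobase in vehicle-treated tumors, 102 ± 6.90 in R-propranolol replicates 1 to 4 and 21.4 in replicate 5. In replicate 5, Fosl1 was 1.32%, Fos 8.11% and Jund 47.4% of the 7 subunits.

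**Figure D4:**
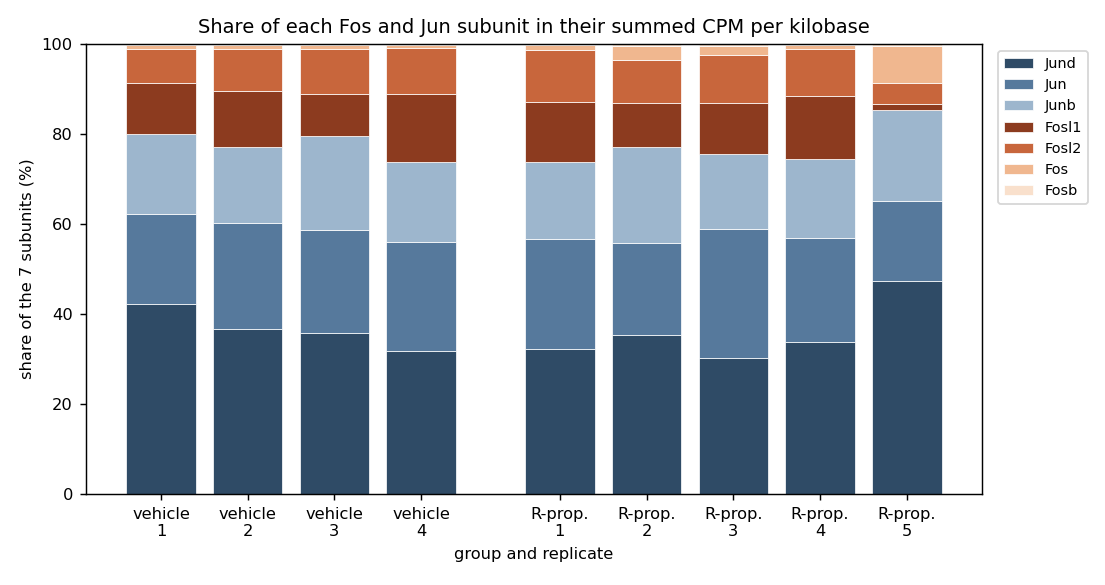
Share of each Fos and Jun subunit in the summed CPM per kilobase of the 7 subunits (vertical axis, percent) in each tumor (bars). Jun family genes, in blue, take 73.7% to 80.0% in the vehicle-treated tumors and 85.5% in R-propranolol replicate 5, where Fos takes 8.11%.

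Members were correlated with each other over tumors after the mean of each group had been subtracted from log2 CPM, as a description over 9 tumors that share libraries and scaling. With all 9 tumors Fosl1, Fosl2, Jun and Atf3 formed a block, with r of 0.95 for Fosl1 and Fosl2 and 0.95 for Jun and Atf3, and Fos correlated with Fosl1 at -0.75. Without replicate 5 (8 tumors), Fosl1 correlated with Fosl2 at 0.27 and with Fos at -0.31, so those values rested largely on that tumor. Pairs at 0.69 or more in both were Jun with Atf3 (0.95 and 0.87 without it), Fosl2 with Jun (0.90 and 0.79), Fos with Jund (0.76 and 0.79), Fosb with Jund (0.79 and 0.83) and Fosb with Junb (0.69 and 0.74). Fos with Fosb was at 0.61 and 0.86, and Fos with Junb at 0.37 and 0.89.

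**Figure D5:**
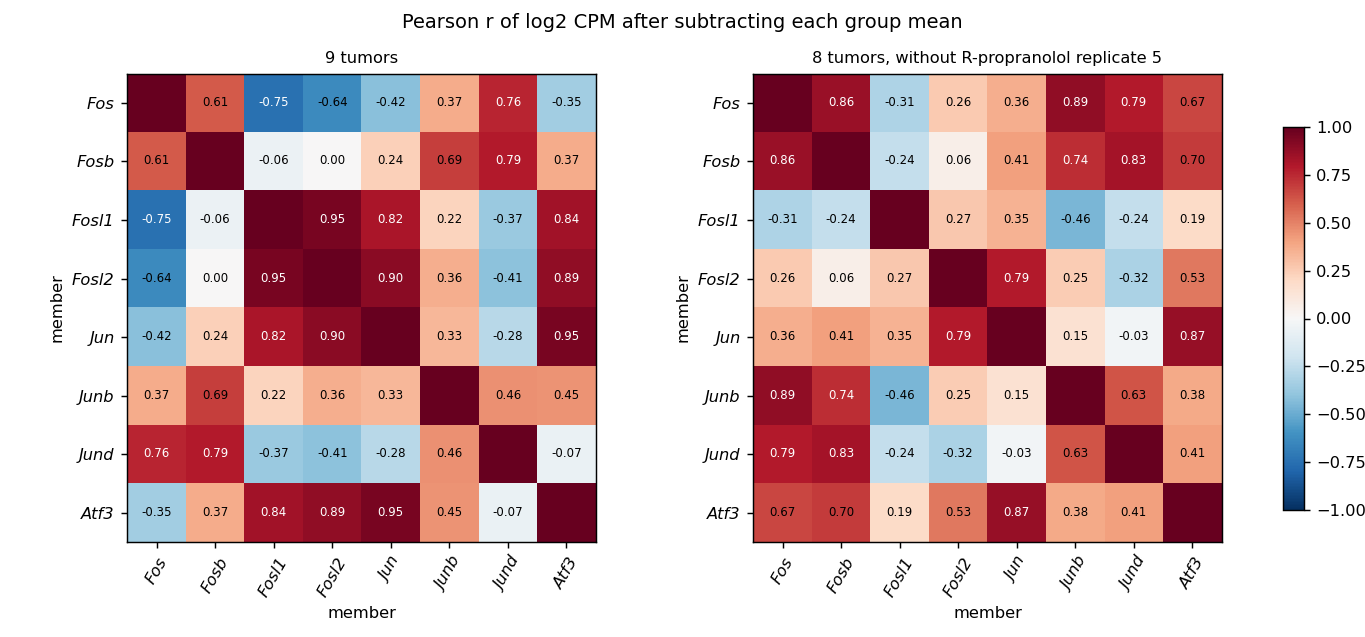
Pearson r of log2 CPM between members after subtracting each group mean, over 9 tumors (left) and over 8 tumors without R-propranolol replicate 5 (right), with red for positive and blue for negative values. Fosl1 and Fosl2 go from 0.95 to 0.27, and Fos and Junb from 0.37 to 0.89, when replicate 5 is left out.

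Among 12979 genes with a mean of at least 1 CPM, those that varied most like Fos within groups were Stx4a (r = 0.99), Dhrs3 (0.99) and Ypel3 (0.98). Without replicate 5 these values were 0.99, 0.98 and 0.96. Stx4a varied little, with a pooled SD of 0.12 in log2 CPM against 0.90 for Fos, and with library size alone its r was -0.08. Dhrs3, a retinal reductase, spanned a range as wide as that of Fos, from 7.71 to 65.4 CPM. The genes most like Atf3 over all 9 tumors were Zfand2a (0.98), Ptms (0.98) and Angpt2 (0.98). Without replicate 5 these values were 0.94, 0.95 and 0.93. The genes ranked 1 to 3 were then others, each at 0.98, with r of -0.70 to -0.53 over 9 tumors, so the ranking depended on that tumor. Zfand2a was also close to Jun, at 0.99, and at 0.98 without replicate 5. Zfand2a is a stress-induced zinc finger gene, and it held 58.9 to 70.2 CPM in vehicle-treated tumors, 103 CPM in R-propranolol replicate 3 and 36.8 CPM in replicate 5. Angpt2, the angiopoietin released by activated endothelium, ranged from 9.71 CPM in replicate 5 to 73.7 CPM in replicate 3, the tumors with the lowest and the highest Atf3.

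Gene lists around AP-1 were described in the same way. The other basic leucine zipper partners differed little: of 11 tested, 10 had a higher mean with R-propranolol and the median log2 fold change was 0.15. With library size alone 6 of 11 did. Mafk was at 0.20 (SE 0.11) and Mafg at 0.11. Jdp2, a repressor of AP-1, was at 0.26 (SE 0.16), and Atf7, the most abundant, at 0.07. None passed at an unadjusted p under 0.05, a level that 2.01% of all genes passed in the direction of R-propranolol and 0.288% in the other. Without replicate 5, 2 of the 11 passed with R-propranolol higher, as did 2.65% of all genes.

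In the MAP kinase cascades that raise AP-1, 18 of 23 tested genes had a higher mean (10 of 23 with library size alone) with a median of 0.11, and none passed at that level. Without replicate 5, 14 had a higher mean, the median was 0.05, and 2 passed with R-propranolol higher. Map3k1, a kinase above JNK, was at 0.35 (SE 0.17) and Mapk8, which encodes JNK1, at 0.16, or 0.28 and 0.10 without replicate 5. Map2k3 was at 0.48 (SE 0.31), and at 0.09 (SE 0.05) without replicate 5, which held 199 CPM against 77.0 to 79.3 in the other treated tumors. The most abundant, Mapk9, was at -0.20 (SE 0.29), and at -0.01 without it. Of 15 factors that act on the promoters of AP-1 genes, 9 had a higher mean, with a median of 0.03 equal to that of all genes, and 5 did with library size alone. Srf, serum response factor, was at 82.6 ± 1.76 CPM (n = 4) in vehicle-treated and 109 ± 33.2 CPM (n = 5) in R-propranolol-treated tumors, with 5 of 5 treated tumors above the vehicle range. Replicate 5 held 168 CPM of Srf, and its log2 fold change went from 0.40 (SE 0.19) to 0.19 without that tumor. Mef2d was at 0.37 (SE 0.14), and at 0.24 without replicate 5. With all tumors it was the single gene of the 15 to pass at an unadjusted p under 0.05. Without replicate 5, 2 of the 15 passed with R-propranolol higher and 1 with it lower. Mef2c was at 2.49 (SE 1.12), and at 0.20 without replicate 5, where it was at 575 CPM. Mkl2, a cofactor of Srf, was at 0.26 (0.17 without it), and Stat3, the most abundant, at 0.03.

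Of 11 genes of the decay of AP-1 transcripts and the turnover of its proteins, 8 had a higher mean and the median was 0.10, and with library size alone 4 did and the median was -0.06. None passed at an unadjusted p under 0.05, and without replicate 5, 1 did with R-propranolol higher. Zfp36, which encodes the ATTTA-binding protein tristetraprolin, was at 0.41 (SE 0.26). Zfp36l2, the most abundant, was at -0.02, and at 0.18 without replicate 5. Fbxw7 and Itch, ubiquitin ligases of Jun proteins, were at 0.28 and 0.12 (0.12 and 0.10 without replicate 5), and Det1 was at 0.87, or 0.15 without replicate 5.

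The median of the known AP-1 target genes lay below that of all genes with replicate 5 and above it without. Of 32, 13 had a higher and 19 a lower mean, with a median of -0.13 against 0.03 for all genes, and none passed at an unadjusted p under 0.05. Without replicate 5, 19 were higher and the median was 0.06, against 0.01 for all genes, and 3 passed in that direction, as did 2.65% of all genes. Cdkn1a had a log2 fold change of 0.77 (SE 0.37), and the metallothioneins Mt1 and Mt2 of 2.95 (SE 1.59) and 3.29 (SE 1.82). Mt1 was at 565 CPM and Mt2 at 771 CPM in replicate 5, and their log2 fold changes without it were 1.24 and 1.70. Spp1, the most abundant target, was at -0.52 (SE 0.62), and at -0.23 without replicate 5. The 3 tissue-degrading proteases Mmp3, Mmp9 and Mmp13, named here after their values were seen as the classic targets, were at -0.20, -0.32 and -0.46, and at 0.00, -0.04 and -0.19 without replicate 5.

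Of 14 stress genes that act with Atf3, 9 had a higher mean with a median of 0.04, and 12 without replicate 5 with a median of 0.15. Scaling by library size alone left 6. Ddit3, which encodes the stress factor CHOP, was at 0.29 (SE 0.30) and Chac1 at 0.21, and without replicate 5 they were at 0.43 and 0.23. Xbp1 was at 0.49, Trp53 at -0.30 (SE 0.30) and Hspa5, the most abundant, at -0.04, and without it they were at 0.16, -0.09 and 0.07. None passed at an unadjusted p under 0.05.

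Other immediate-early genes were the list with the largest median, 0.40, and 0.25 with library size alone. Of 27, 24 had a higher mean (23 with library size alone). At an unadjusted p under 0.05, 7 passed with R-propranolol higher and none in the other direction. Without replicate 5, 11 passed with R-propranolol higher. This list holds genes picked with the values of these tumors known, and its counts are no independent evidence. Egr1 was at 49.6 ± 7.05 CPM (n = 4) and 107 ± 28.5 CPM (n = 5), with a log2 fold change of 1.11 (SE 0.22). Dusp1, the phosphatase that ends MAP kinase signaling, had 0.87 (SE 0.18), and each treated tumor was above the vehicle range for both genes. Nr4a1 was at 1.10 (SE 0.30), Cyr61 at 1.32 (SE 0.41), and Rhob, the most abundant, at 0.21. All treated tumors lay above the vehicle range for 5 of the 27 genes, 18.5%, against 0.633% of all genes. Fos varied more than most genes among treated tumors, with an SD of log2 CPM of 1.16 against a median over all genes of 0.48, and in vehicle-treated tumors these were 0.30 and 0.16.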

How the data were processed

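RNA from whole frozen tumors was made into NEBNext Ultra libraries and sequenced as pairs of 150-base reads. The authors used STAR for alignment to mm10 and HTSeq for counting, and the deposited values are raw counts per gene symbol. The sources used here give no tool versions, annotation or strand setting. Of all listed reads, 20.3% were not assigned to a gene, and these stayed out of library sizes.

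Counts were filtered (filterByExpr, minimum count 10, minimum total 15), scaled by TMM and compared between groups, taken from the treatment labels, with the quasi-likelihood test of edgeR 4.0.16 in R 4.3.3, with Benjamini-Hochberg adjustment over all genes. Log2 CPM had a prior count of 2, and 0.1 was added to levels per kilobase. DESeq2 1.42.0, limma 3.58.1 (voom), other scalings and filters, each tumor left out and a replicate block were alternatives. Exon lengths are from GENCODE M21 on GRCm38, and 7 of 8 members matched a RefSeq promoter window. No pair of libraries of the same group was a duplicate by a chi-square of counts, and pairs across groups were not compared.

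The members, the gene lists and the tests were chosen with earlier results of these data known. All 8 members are described, and from each list the most abundant gene and up to 4 by smallest p, with 3 genes by likeness to Fos and to Atf3. Only Mmp3, Mmp9 and Mmp13 were added, and 3 genes that this rule names are not reported here. A sign-flip test of the order of levels was planned, but its p-values are not printed, since the order was set in the same tumors. The p-values and SDs measure the spread between these libraries, and the labels do not say more about separate animals.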

Additional observations from a re-analysis of the deposited data

Results flagged for a closer look

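In groups of 4 or 5 tumors, 5 of 26 values of the members had a tumor that lay apart from the others by Dixon's criterion, which chance meets in about 1 of 20 groups, and all 5 were in R-propranolol replicate 5. Its Fosl1, at 3.27 log2 CPM, and its Fosl2, at 7.34 log2 CPM, were the lowest of their group. Its summed Fosl1 and Fosl2, at 21.4 CPM per kilobase, was the lowest as well. The share of the Fos family among the 7 subunits was lowest there, at 14.5%, and that of the Jun family, its complement, highest, at 85.5%. These values are not independent of each other, since Fosl1 and Fosl2 enter all of them. The skeletal muscle markers of this tumor, at 13.4% of counts, moved with them, and their part was not tested.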

How the results depend on the processing

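Over 19 alternatives, Fos ranged from 0.90 to 2.33 in log2 fold change, Fosb from 1.10 to 1.91, Atf3 from 0.26 to 0.61, Fosl2 from 0.11 to 0.43, Jun from 0.08 to 0.40 and Junb from 0.09 to 0.29, all above 0. Jund was above 0 in 18 of 19 and ranged from -0.01 to 0.24. Fosl1 kept its negative sign in 14 of 19 and ranged from -0.41 to 0.28. Fos was at 0.90 with voom quality weights and at 1.07 without R-propranolol replicates 2 and 5, an alternative chosen after the data were seen. The adjusted count of 0 genes became 2 with DESeq2 and stayed 0 in the other alternatives. The unadjusted count of 320 became 626 without a filter, 656 with DESeq2, 139 with limma-voom, 838 with quality weights, 100 with vehicle replicates 1 and 2 summed, 639 without R-propranolol replicates 2 and 5, and 103 (without vehicle replicate 2) to 737 (without R-propranolol replicate 4) when single tumors were left out. Leaving out any single vehicle replicate gave 103 to 111. With library size alone the medians of the promoter factors and of the decay list were -0.09 and -0.06.

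Replicate numbers did not pair the tumors: deviations of same-numbered tumors correlated at -0.0185, -0.0272, -0.584 and 0.385. With the replicate block (8 tumors), 0 genes passed after adjustment, 268 before it, and Fos was at 1.34.

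In the order of levels, Jund minus Jun was -0.30 with coding length. Jun minus Junb was -0.05 with the longest transcript and 0.24 to 0.36 with single tumors left out. Fosl1 minus Fosl2 was -0.38 with the longest transcript, -1.94 with coding length, and -0.01 to 0.29 with single tumors left out, where it was -0.01 without vehicle replicate 1, -0.0 without vehicle replicate 4, and 0.29 without R-propranolol replicate 5. The cause was not tested. The Fos family share in vehicle-treated tumors was 25.4% with the longest transcript and 41.8% with coding length, and in R-propranolol-treated tumors 41.5% with coding length. Stx4a correlated with Fos at -0.08 with library size alone, and by rank Stx4a was at 0.98, Dhrs3 at 0.95 and Ypel3 at 0.87. Without R-propranolol replicate 5, Zfand2a was at 0.94, Ptms at 0.95 and Angpt2 at 0.93 with Atf3.

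Fosb rests on at most 460 reads per tumor. With 4 and 5 tumors and a median SD of log2 CPM of 0.48 in treated tumors (0.20 without replicate 5, against 0.16 in vehicle-treated), log2 differences of 0.14 to 0.23, as for Jund, Junb, Jun and Fosl2 with standard errors of 0.14 to 0.30, could not be resolved.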
